A study of Drosophila melanogaster with 3 samples.

Results

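Raf (FBgn0003079) is a Drosophila melanogaster protein kinase gene on the X chromosome, and the data described here are the places where the protein CG9609 was found on the DNA of that gene and its surroundings. The stretch examined was the gene body with 10 kb on each side, from 2285466 to 2353870 of X in the dm6 build, and Raf was chosen by its cluster of CG9609 peaks, measured in these same files. It held 12 of the 3747 peaks that the authors called reproducible across replicates. Numbers of peaks, signals and ranks at Raf are therefore given as a description, with no test.

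The chromatin came from whole embryos of both sexes, 0 to 24 h old, of 1 transgenic line that stably expresses CG9609 carrying a C-terminal green fluorescent protein (GFP) tag, and was precipitated with an antibody against GFP. This chromatin immunoprecipitation with sequencing (ChIP-seq) was done in 3 biological replicates on fragments of 200 to 800 bp. All belong to 1 group, CG9609-GFP, and no other genotype, age or treatment is compared. Which promoter drives the fusion is not given in the sources used here, and a whole embryo mixes all cell types, so a peak cannot be assigned to a tissue or to a share of cells.

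Raf is the kinase that links the small GTPase Ras to the MAP kinase cascade. Receptor tyrosine kinases such as Torso, Egfr and Sevenless load Ras with GTP. Ras then recruits Raf, and Raf phosphorylates the MAP kinase kinase Dsor1, which phosphorylates the MAP kinase rolled. In the fly embryo the pathway is known for patterning both termini of the body under Torso and the ventral ectoderm under Egfr. A ChIP peak at Raf says where tagged CG9609 was recovered, not whether Raf transcription depends on it.

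The annotation gives Raf 2 protein-coding transcripts that share their coding exons. Raf-RE starts at 2295466 and has a pair of exons wholly in the 5′ UTR, followed by an intron of 43637 bp. Raf-RA starts at 2340298, after that intron. Most of the gene's 48405 bp is thus the long intron of Raf-RE, which also contains CG14050, CG2854, the insulin-like peptide gene Ilp6, and the non-coding RNA genes lncRNA:CR34052 and lncRNA:CR33218.

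The peaks crowded at the 5′ end of Raf-RE. Of the 12 summits, numbered 1 to 12 along the chromosome, 2 lay upstream of Raf, 10 lay within it and none lay in the 10 kb downstream. The long intron of Raf-RE held 9 of them and the untranslated exon before it held 1. Summits 1 to 10 fell within 12866 bp, with a median of 1539 bp between neighbours. Summits 11 and 12 stood 26660 and 34069 bp downstream of the Raf-RE start, after a gap of 15591 bp.

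**Figure D1:**
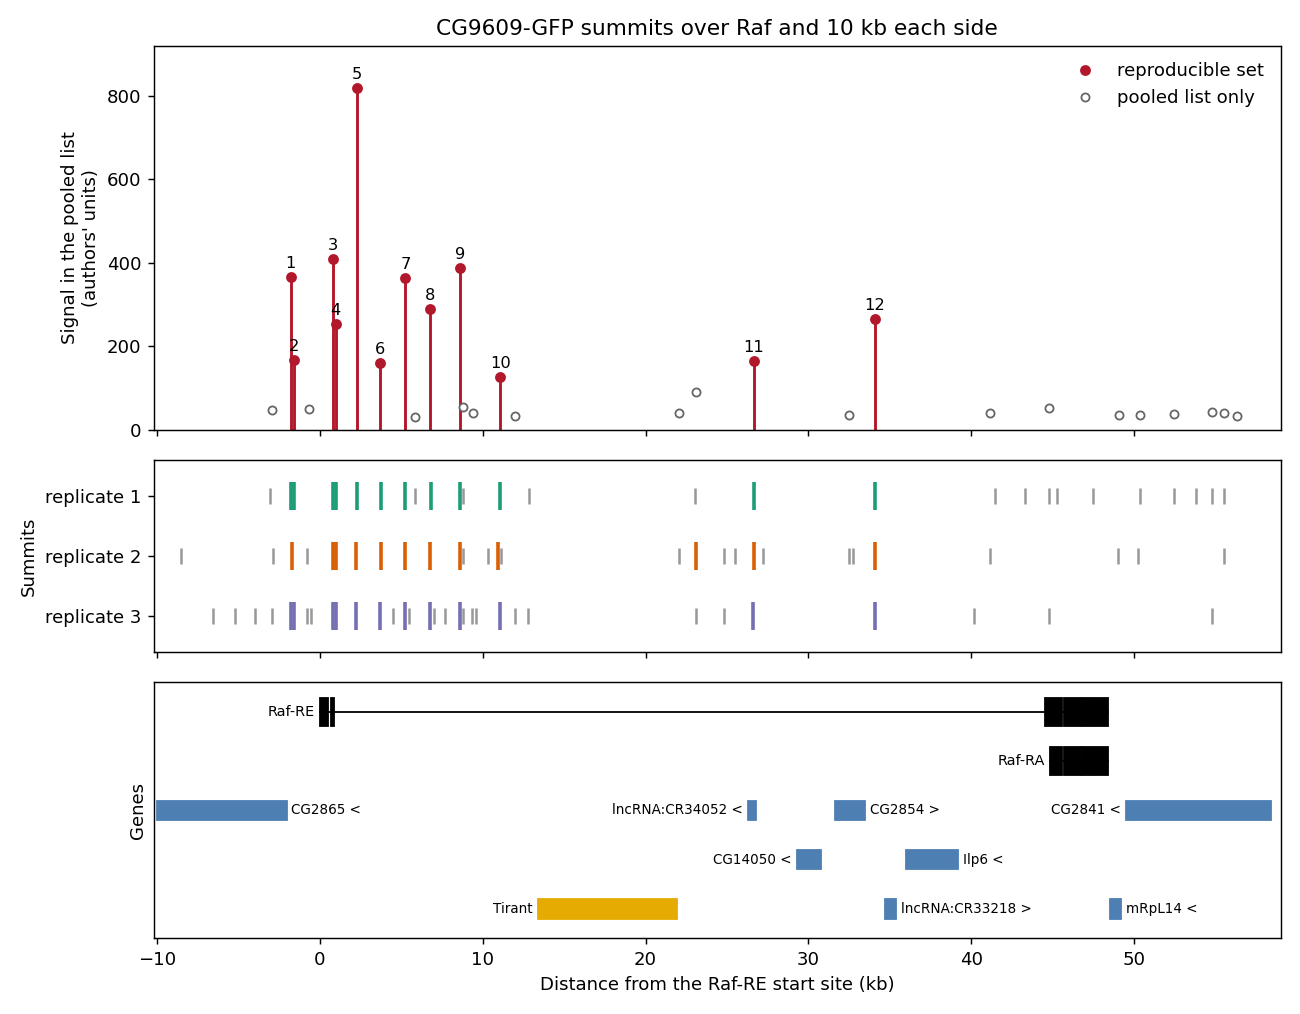
CG9609-GFP summits against the distance from the Raf-RE start site, in kb. Top, signal in the pooled list, with numbered filled points for the 12 reproducible peaks and open points for the 17 other pooled regions; middle, summits of each replicate list, coloured where they are among its 3747 strongest regions and grey otherwise; bottom, exons of the Raf transcripts (black), other genes (blue, with > or < for the strand) and the Tirant element (yellow). Peaks 1 to 10 gather within 12866 bp around and after the start site, and 10 of the 12 peaks are among the strongest regions of all 3 replicates.

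The sequences around the 5 strongest summits outside exons show what DNA lies under the cluster. Each line is the + strand of dm6, 50 bp either side of the summit, with matches to the searched motifs in capitals. Peak 1 is chrX:2293619-2293719, peak 5 is chrX:2297678-2297778, peak 7 is chrX:2300660-2300760, peak 8 is chrX:2302201-2302301 and peak 9 is chrX:2304019-2304119.
peak 1: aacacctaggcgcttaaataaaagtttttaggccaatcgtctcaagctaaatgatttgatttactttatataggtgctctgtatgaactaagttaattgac
peak 5: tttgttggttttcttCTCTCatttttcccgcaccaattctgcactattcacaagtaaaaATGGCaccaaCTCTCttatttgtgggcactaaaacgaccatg
peak 7: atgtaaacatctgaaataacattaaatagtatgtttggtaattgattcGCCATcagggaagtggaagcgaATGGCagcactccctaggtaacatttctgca
peak 8: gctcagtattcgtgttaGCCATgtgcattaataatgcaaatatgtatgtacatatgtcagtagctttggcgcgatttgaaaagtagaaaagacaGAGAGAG
peak 9: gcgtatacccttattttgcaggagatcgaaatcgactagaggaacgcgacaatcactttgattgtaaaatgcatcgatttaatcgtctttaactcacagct

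The capitals mark GAGAG, the core bound by GAGA factor, and GCCAT, the core bound by the Polycomb group protein Pho, each on either strand. In peak 5 the GAGAG matches were centred 33 bp before and 21 bp after the summit, and a GCCAT match 11 bp after it. The peak 5 summits of replicates 2 and 3 had an offset of -22 bp from the summit used here, so these distances depend on the list. In peak 7 a GCCAT match was centred on the summit itself and another 22 bp after it. Peaks 1 and 9 held none of the motifs searched.

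Peak 5, in the long intron 2262 bp after the Raf-RE start, was the strongest of the cluster. Its region ran from 2297568 to 2297861, its summit was at 2297728, and its signal of 819 gave it rank 48 of 3747. The signal column is the authors' own, on a scale not given in the sources used here, and a rank of 1 is the strongest region of a list. Peak 5 held ranks 34, 57 and 68 in replicates 1, 2 and 3, a mean of 53.0 ± 17.3 (SD, n = 3), in lists of 30000, 29898 and 30000 regions. It was first of the window in every replicate, with 2.16, 1.75 and 1.76 times the signal of the next region of the same list (1.89 ± 0.230, SD, n = 3). Its own signal was 286, 235 and 301 in replicates 1, 2 and 3.

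Of the other peaks, 7 (peaks 1, 3, 4, 7, 8, 9 and 12) formed a middle tier with ranks from 236 to 681. Peak 3, with rank 236 and a signal of 409, had its summit at 2296242 in the untranslated second exon of Raf-RE, 776 bp after the start site. It ranked 188, 225 and 394 in replicates 1, 2 and 3. Peak 9, an intronic peak at 2304069 with rank 273, ranked 158, 297 and 459 in replicates 1, 2 and 3, and its summit moved by at most 6 bp between lists.

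Peak 7, also intronic, at 2300710, had rank 327 and replicate ranks of 302, 274 and 475. Peak 8, at 2302251, had rank 527 and replicate ranks of 463, 777 and 517. These were similar positions in every list, and none of peaks 3, 7, 8 and 9 left the strongest 777 regions of any replicate. Peak 4 lay at 2296445, only 203 bp from peak 3, with rank 681 and replicate ranks of 1206, 720 and 959. Peak 12, far from the cluster at 2329535, had rank 615 and replicate ranks of 556, 555 and 916. It lay in the long intron of Raf, 624 bp upstream of lncRNA:CR33218.

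Peak 1 was the strongest peak outside Raf. Its summit at 2293669 had an offset of -1797 bp from the Raf-RE start and lay 258 bp upstream of CG2865, a gene on the opposite strand, so by distance it is a promoter peak of CG2865. It had rank 324 and ranked 529, 302 and 257 in replicates 1, 2 and 3. Peak 2, at 2293876, lay 207 bp farther from CG2865, with rank 1459. It ranked 3201 in replicate 1 and 1992 in replicate 3, and replicate 2 had a single summit at 2293745, between peaks 1 and 2 and 131 bp from peak 2.

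Peaks 6, 10 and 11 were weaker than the middle tier, as was peak 2. Peak 6 at 2299171 had rank 1578, with replicate ranks of 1889, 2368 and 1185. Peak 11 at 2322126 had rank 1494, with replicate ranks of 798, 2205 and 1975. It lay 138 bp inside lncRNA:CR34052, a non-coding RNA gene nested in Raf on the opposite strand, where the reproducible summit falls in an exon. The summits of replicates 1, 2 and 3, at 2322102, 2322103 and 2322075, fall in the intron of that RNA, so its place turns on shifts of 23 to 51 bp. Peak 10 at 2306535 was the weakest of the 12, with rank 2300, and ranked 1812, 9147 and 2812 in replicates 1, 2 and 3. In replicate 2 a stronger region, of rank 2900, had its summit 135 bp away from it.

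**Figure D2:**
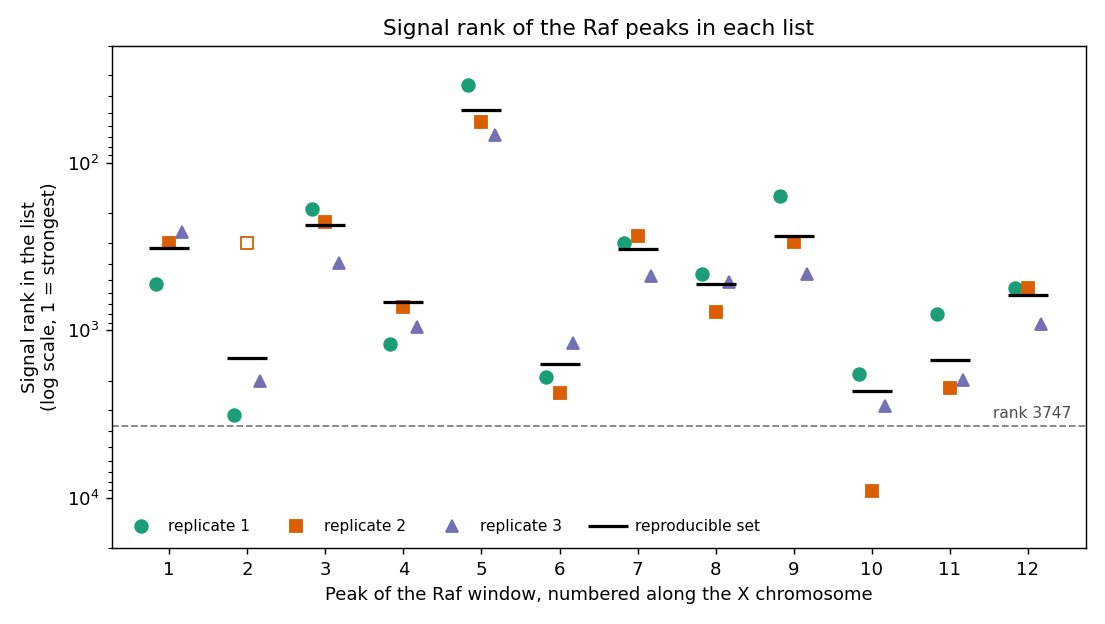
Signal rank of each of the 12 peaks in the lists of replicates 1, 2 and 3 (coloured points) and in the reproducible set (black bars), on a log scale with the strongest at the top. The dashed line marks rank 3747, and an open point marks a nearest summit over 100 bp away, which is peak 2 in replicate 2. Peak 5 is highest in every list, and peak 10 in replicate 2 alone lies beyond the line.

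Most of the peaks at Raf were found in every replicate. The 3747 regions of highest signal were taken from each replicate list, as many as the reproducible set holds, and a peak counted as shared where 1 of their summits was at most 100 bp from its own. By that measure 10 of the 12 peaks were shared by all 3 replicates and the other two, peaks 2 and 10, by replicates 1 and 3. The same held for 55.4% of the whole reproducible set, and since the peaks were chosen on signal pooled from these replicates, nothing is read from the difference. Replicate summits were a median of 9 bp and at most 131 bp from the reproducible ones. Each replicate had 12 of its strongest regions in the Raf window, but those of replicate 2 were not the same 12. Replicate 2 lacked peaks 2 and 10 among them and had regions at 2306400 (rank 2900) and 2318563 (rank 2903) instead, neither within 100 bp of a reproducible summit. Spearman's rho of the ranks over the 12 peaks was 0.743 for replicates 1 and 2, 0.874 for replicates 1 and 3 and 0.788 for replicates 2 and 3. These peaks share a locus and libraries, and in replicate 2 peaks 1 and 2 share a region, so the values are descriptions.

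Neither start site of Raf had a reproducible peak within 500 bp. At the Raf-RE start the nearest was peak 3, 776 bp inside the transcript, and the nearest region of the pooled list lay 705 bp upstream with rank 9423 of 29054. No replicate list had a summit within 500 bp of that start. At the Raf-RA start a weak pooled region had its summit 46 bp upstream, with rank 8906. It was present 61 bp upstream in replicates 1 and 3, at ranks 20848 and 6017, while the nearest summit of replicate 2 was 3670 bp away. Across the genome, 2623 of 13968 protein-coding genes (18.8%) had a reproducible summit within 500 bp of a start site, and Raf was not among them.

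By place, introns held 8 of the 12 summits, promoters 2, an untranslated exon 1 and an exon of a non-coding RNA, nested in the long intron, 1. The last is peak 11, whose replicate summits are all intronic. In the whole reproducible set 53.9% of summits were at promoters, meaning within 500 bp of a protein-coding start site, and 30.4% were in introns. Both promoter summits at Raf belonged to CG2865. Of the other genes in the window, CG14050, CG2854, Ilp6, the mitochondrial ribosomal protein gene mRpL14 and CG2841 had no reproducible summit within 2 kb of a start site. The nearest reproducible summit was 3318 bp from a start of CG14050, 2407 bp from CG2854 and 2873 bp from Ilp6, in each case peak 12. mRpL14, downstream of Raf, had a pooled region 79 bp inside it with rank 20603.

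The window also held regions below the authors' threshold. The pooled list had 29 regions there, of which the 12 reproducible ones were the strongest, against 12.9% of all pooled regions in the reproducible set. That set was the 3747 pooled regions of highest signal, without exception, so within the pooled list it amounts to a signal threshold. Peak 10, the weakest inside, had a signal of 126. The strongest outside, at 2318555 in the long intron, had 89.2 and rank 3785, and was found in replicates 1, 2 and 3 at ranks 10267, 2903 and 4928. The other 16 pooled regions ranked from 7916 to 26211. Over the replicate lists, 27, 28 and 32 regions fell in the window (29.0 ± 2.65, SD, n = 3).

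A stretch of the long intron had no summit in any list. The reference genome carries a Tirant retrotransposon from 2308848 to 2317374, which is 8527 bp of the 15591 bp between peaks 10 and 11, and none of the 5 lists had a summit inside it. A weak region of the pooled list, from 2317320 to 2317709, and 1 of replicate 2, from 2317357 to 2317736, reached into its end, with their summits beyond it. Of 1895 annotated transposable elements of at least 1 kb, 1863 (98.3%) had no pooled summit. Pooled summits numbered 4.59 per Mb of such elements, against 217 per Mb of the assembly without Y. Whether the embryos carry this insertion, and whether reads from repeats were kept, was not tested, so the stretch without summits cannot be read as unbound.

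Some neighbouring summits may be counted apart only by how the peaks were split. Peaks 1 and 2 were 207 bp apart and peaks 3 and 4 were 203 bp apart, and 7.26% of the reproducible summits had another within 250 bp. Weaker regions outside the set stood 208 bp from peak 7 and 198 bp from peak 8 in replicate 3, and 193 to 205 bp from peak 9 in the pooled list and all 3 replicates. Counting summits within 250 bp of each other once, a choice made after seeing the data, left 10 in the window. For peaks 3 and 4 all 3 replicates gave both summits, with shifts of 8 to 16 bp. Their spacing of 203 bp lies within the range of the other close distances given above. This agreement therefore cannot tell separate sites from a split peak.

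Few genes had as many reproducible summits around them as Raf. The Raf window of 68.4 kb held 12, the median over the 13968 protein-coding genes was 1, and 6 genes including Raf (0.0430%) had 12 or more. CG1677 had 17, the immunoglobulin-superfamily gene kirre, sbb and the GATA cofactor gene ush had 14 each, and the nuclear receptor gene Hr4 had 12. Longer windows can hold more summits. Among 447 genes whose window was within 25% of the Raf window in length, the median was 1, the 90th percentile was 4, and 2 had 12 or more, Raf included. Per kb of window Raf had 0.175 summits and 421 genes had a higher value. With summits within 250 bp merged, a choice made after seeing the data, Raf had 10 and rank 8 among genes.

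**Figure D3:**
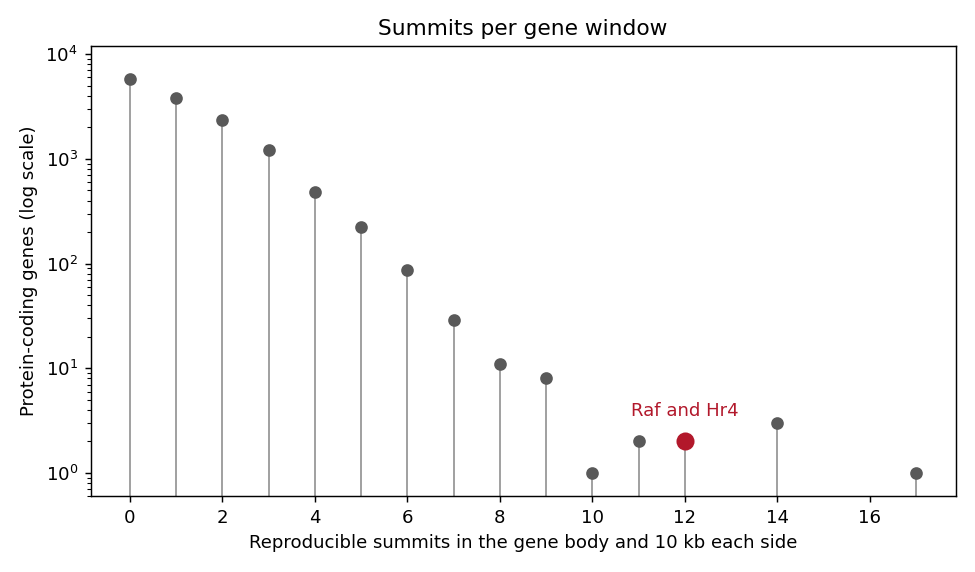
Number of protein-coding genes, on a log scale, by the number of reproducible summits in the gene body and 10 kb each side. Raf and Hr4, marked in red, have 12, while 5736 genes have none and the highest count is 17.

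The 5 genes most like Raf were taken by the closest number of summits and then the closest window length, among genes whose windows do not overlap that of Raf. These were Hr4 (12 summits), CHES-1-like, a forkhead gene (11), drongo (11), tara (10) and ush (14). Merging summits within 250 bp left the counts of these 5 genes unchanged, while that of Raf fell to 10. Raf had 10 of 12 summits in its gene body, as had Hr4, CHES-1-like had 10 of 11 and ush 11 of 14, while drongo had 4 of 11 and tara 6 of 10. Introns held 8 of 12 summits at Raf, 9 of 12 at Hr4, 8 of 11 at CHES-1-like and 10 of 14 at ush. They held 5 of 11 at drongo and 6 of 10 at tara. Promoter summits numbered 2 at Raf, Hr4 and CHES-1-like, 3 at ush, 4 at drongo and 0 at tara. Raf had 10 of 12 summits shared by all 3 replicates, Hr4 had 12 of 12, CHES-1-like 8 of 11, ush 9 of 14, drongo 6 of 11 and tara 6 of 10. The median rank of their summits was 571 for Raf, 786 for CHES-1-like, 1060 for Hr4, 1326.5 for tara, 1362.5 for ush and 2163 for drongo. The strongest peak at Raf had rank 48, that at ush rank 2, at tara 29, at Hr4 151, at CHES-1-like 300 and at drongo 457. Raf was chosen for its cluster, so this order carries no test.

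Words of 8 bases that were frequent at CG9609 peaks on the autosomes were looked for at the Raf summits. From the 3031 autosomal peaks, which include no Raf peak, the 10 words of 8 bases with the largest excess within 50 bp of the summit over windows centred 300 bp to either side were taken. None of the 12 Raf windows held any of them, against 166 of the 704 other X summits (23.6%), which were not used to choose the words, and 11.9% of the windows 300 bp from those. This comparison with X was added after seeing the data. It was not matched for place. Introns held 8 of the 12 Raf summits and promoters 2, against 30.4% and 53.9% of the whole reproducible set. The places of the 704 other X summits are not given here. Whether the difference in words is one of place was not tested. Over all 3735 other summits the share was 25.8%, a value that includes the peaks the words were chosen on. The words were ATCGATAG and TATCGATA, which overlap each other and contain the core of the DNA replication-related element, CAACACTG, and 7 words of A and T alone. ATCGATAG was in 3.32% of other summit windows, CAACACTG in 2.97% and TATCGATA in 3.00%, against 0.415%, 0.308% and 0.442% of the windows 300 bp away, and these shares too include the peaks used for the choice. Absence means only that these letters are not in these windows.

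Of the 10 motifs searched on both strands, 2 occurred at Raf. GAGAG was within 50 bp of 4 of 12 summits (peaks 2, 5, 8 and 12), against 9.93% of other summit windows and 15.4% of windows 300 bp away. GCCAT was at 3 of 12 (peaks 5, 7 and 8), against 15.7% and 17.1%. CGATA, which lies within TATCGATA, was at none, against 20.5% of other summit windows. The other motifs, also at none, were TATCGATA, the early-embryo Zelda motif CAGGTAG, the E-box CACGTG, GGTCACAC, the AP-1-type TGANTCA, the GATA-type GATAAG and the Grainyhead-type AACCGGTT, each in at most 6.24% of other summit windows. The median GC content was 39.1% at the Raf summits and 36.6% over all reproducible summits.

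The genes of the pathway were examined at their promoters. A list of 53 genes from ligands to nuclear targets, Raf included, had 52 matches in the annotation, Gap1 being the exception, and 17 of the 52 (32.7%) had a reproducible summit within 500 bp of a start site, against 18.8% of all protein-coding genes. In the strongest regions of replicates 1, 2 and 3 the count was 18, 18 and 16 (17.3 ± 1.15, SD, n = 3). The share of all genes bound by those regions is not given here. These counts therefore show only that the number was similar between replicates, not an excess. With the peaks that replicates 1 and 3 share, leaving replicate 2 out, 11 were bound, against 12.9% of all genes. The list was chosen with results of these data known and has no test. Among genes of ligands and their processing 4 of 15 were bound, and of receptors 0 of 7. Of adaptors and exchange factors 3 of 7 were bound, namely Shc, dos and csw, while the exchange factor gene Sos was not. In the group of Ras and its GTPase-activating proteins 2 of 4 were bound, the GTPase genes Ras85D and Rap1. The genes of GTPase-activating proteins there, vap and Nf1, were not bound. Leaving out Raf, which was not bound, the count was 17 of 51 (33.3%). The partners of Raf had 4 of 9, the MAP kinase group 2 of 4 and nuclear targets 2 of 5. In the MAP kinase group the bound genes were Mkp3 and mts, and the kinase genes Dsor1 and rl were not bound.

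The strongest promoter peak of the list was at Shc, an adaptor gene, with rank 10 and its summit 111 bp upstream. gro, the Groucho corepressor gene, followed with rank 98, and spi, which encodes the main Egfr ligand, with rank 111. The summits at gro and spi lay inside the annotated genes, 282 and 177 bp upstream of an internal start site. Hsp83, the fly Hsp90 gene whose product chaperones Raf, had rank 447, with its summit inside the annotated gene, 108 bp upstream of an internal start site, and Ras85D, the Ras gene itself, had rank 640, 153 bp upstream. Each of these 5 peaks was shared by all 3 replicates in the sense used above. The genes of the kinases just downstream of Raf, Dsor1 and rl, and of the scaffolds ksr and cnk had no promoter summit. In numbers of summits within the gene body and 10 kb, Raf had 12 and the next members of the list were aop, which encodes the repressor Yan, with 8, and spi, dos and Sur-8 with 6 each.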

How the data were processed

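The authors deposited narrowPeak files for the dm6 build: 1 list of peaks with background regions per replicate, 1 called on the 3 replicates pooled, and 1 thresholded on the irreproducible discovery rate, per the deposited records. Peak signal values were made by the authors on a scale not stated. The sources used here name no peak caller or aligner. The labels list a possible control, and how it was used is not stated. Read depth is unknown. Lists in dm3 were not used.

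Summits are the region start plus the deposited offset, counted from 1. The annotation was Ensembl release 115 (BDGP 6.54), the same assembly as dm6, and sequences came from the RefSeq copy of that assembly. Summits within 500 bp of a start site of a protein-coding transcript were called promoter summits. Others were placed in exons, then introns, then between genes. Counting, sharing and word steps were checked on simulated data. Python 3.11.15 and pandas 2.3.3 were used.

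The gene, the pathway list and the motifs were chosen with earlier results of these data known. Named genes are Raf, genes in its window or nearest to its summits, bound pathway genes and the 5 genes most like Raf; CG1677, kirre, sbb and unbound pathway genes were named after their values were seen. Alternatives were other flanks, promoter windows, distances, thresholds and replicates left out.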

Additional observations from a re-analysis of the deposited data

How the results depend on the processing

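The count of 12 reproducible summits at Raf stayed between 10 and 12 with no flank, shorter flanks and flanks 2 times as long, whole regions, the 1873 strongest peaks, the strongest pooled regions, or summits within 250 bp merged. Within 250 and 1000 bp of a protein-coding start site there were 0 and 4 summits in place of 2. Peaks shared by all replicates numbered 8 to 12 under the other distances and list sizes, and 10 to 12 without each replicate in turn. With the 1873 strongest regions of each replicate, the mean number in the window was 9. The mean rank of peak 5 was 45.5 to 62.5 without each replicate in turn. The rank of Raf among genes, 5 by number of summits, was 10 with flanks 2 times as long, 422 per kb of window and 8 with summits merged, the last chosen after seeing the data. Of the pathway genes, 10 in place of 17 were bound by the 1873 strongest peaks, where 10.7% of all genes were. Peaks shared by all replicates bound 10, against 11.8% of all genes. Without replicates 1, 2 and 3 in turn, 13, 11 and 13 were bound, against 13.9%, 12.9% and 13.3% of all genes. With promoter windows of 250 and 1000 bp, 13 and 22 were bound, against 15.3% and 21.6% of all genes. With 100 bp each side of the summit, words chosen in the same way were found at 1 Raf summit, peak 12. The share of the 704 other X summits, again not matched for place, was 37.8%. The cause of these shifts was not tested beyond the smaller sets or windows themselves. No paired analysis was possible because the samples form 1 group.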
